A study of Mus with 9 samples.

Results

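Mitochondrial ribosomal protein genes were examined in hippocampal RNA of SAMR1, SAMP8 and trigonelline (TG)-treated SAMP8 mice. They were found by symbol, as probe sets naming a gene of the Mrpl series (large subunit of the mitochondrial ribosome) or the Mrps series (small subunit), with pseudogenes left out. The rule found 77 probe sets for 77 genes, 48 Mrpl and 29 Mrps, among the 22206 probe sets of the array. The rule used names only and no measured value.

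The mitochondrial ribosome translates the few messenger RNAs of the mitochondrial genome, which encode membrane subunits of the respiratory chain and the ATP synthase. Its ribosomal RNAs come from the mitochondrial genome, whereas its proteins are encoded in the nucleus, made on cytosolic ribosomes and imported. Some of these proteins descend from proteins of the bacterial ribosome (bacterial-type below), and others were added in mitochondria and have no bacterial counterpart (mitochondria-specific). Neurons depend on oxidative phosphorylation, so the production of its subunits is of interest in the ageing hippocampus.

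SAMP8 is a mouse strain with accelerated senescence and early memory decline, and SAMR1 is the related strain that ages normally and served as control. The mice were 16-week-old males before acclimatization, dosing and testing, so they were older when the hippocampus was taken. The TG-treated SAMP8 group received TG, a plant alkaloid found in coffee, by mouth at 5 mg/kg for 30 days and also during the following 8 days of behavioral testing. The SAMP8 and SAMR1 groups received the vehicle alone, given as saline in the sample records and as water in the methods, and the groups were trained in the Morris water maze. SAMR1 and SAMP8 differ in strain, so differences between them include every strain difference, and there was no TG-treated SAMR1 group.

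Each group was measured on 3 Clariom S Mouse arrays, 9 in total, according to the sample records, although the series text speaks of duplicate RNA samples. The deposited tables give 1 log2 average per probe set and group, made by the authors, and values per array were not analysed here. Every value below is therefore an authors' average or a difference of 2 such averages, with no SD and no test. Whether a difference exceeds the spread between mice was not determined here, since the authors' own p-values were not used. The small number of arrays limits the precision further. Averages are deposited with 2 decimals, so a difference carries a rounding error of up to 0.01. A difference is described as past the limit when it exceeds 1.2-fold (0.263 on the log2 scale). That limit is a description of size and not of statistical significance. In bulk tissue, fewer cells of a type and less RNA per cell cannot be told apart.

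The members were well within the measured range. Their averages lay between 3.75 and 12.1, against 2.39 to 19.93 for all probe sets, and 59 of 77 were above the median of all probe sets in each of the 3 groups. The median member average was 7.50 (SAMR1), 7.56 (SAMP8) and 7.81 (TG-treated SAMP8), whereas the median over all probe sets was 6.09, 6.04 and 6.07. Members lay on 17 chromosomes. The probe set of Mrps6 also names Slc5a3, a myo-inositol transporter gene, and that of Mrpl53 also names Ccdc142, so the values of these 2 members are uncertain. Mrpl53, a mitochondria-specific large subunit gene, averaged 6.36 (SAMR1), 6.49 (SAMP8) and 6.87 (TG-treated SAMP8). A further limit is that 25 members overlap another annotated gene and 4 (Mrpl23, Mrpl27, Mrpl48 and Mrps36) have annotated pseudogenes.

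SAMP8 mice were first compared with SAMR1 mice, which asks how the strain with accelerated senescence differs from its control. In SAMP8, 21 members were higher past the limit and 6 were lower, with a median difference of 0.11 on the log2 scale. Over all probe sets the share past the limit was 20.4% higher and 20.4% lower, with a median of 0.00. The 21 members correspond to 27.3% and the 6 to 7.79%, so the share of lower members was below the background and that of higher members somewhat above it. After each group was centred on its median over all probe sets, the split was 30 higher and 3 lower, against 24.8% and 17.2% of all probe sets. At 1.1-fold, 36 members were higher and 14 lower (background 33.0% and 32.5%), and at 1.5-fold 5 were higher and 1 was lower (background 5.0% and 6.08%).

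Mrpl35, which encodes a bacterial-type protein of the large subunit, had the largest strain difference of the 77 members. Its average was 6.23 (SAMR1), 7.72 (SAMP8) and 7.86 (TG-treated SAMP8), 2.81-fold higher in SAMP8 than in SAMR1. SAMR1 was thus the low group and the 2 SAMP8 groups lay close together. The gene occupies chromosome 6, positions 71812997 to 71823784 (GRCm38.p6). Mrpl50, a mitochondria-specific large subunit gene, also had its low average in SAMR1, with 8.25 (SAMR1), 9.10 (SAMP8) and 9.03 (TG-treated SAMP8). Mrps27, a mitochondria-specific small subunit gene whose product is an RNA-binding protein of the pentatricopeptide repeat type, averaged 5.78, 6.56 and 6.46 in these groups. For both, SAMP8 and TG-treated SAMP8 differed by 0.10 or less on the log2 scale.

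The bacterial-type large subunit genes Mrpl13 and Mrpl32 were each 1.56-fold higher in SAMP8 than in SAMR1. Mrpl13 averaged 9.03 (SAMR1), 9.67 (SAMP8) and 9.90 (TG-treated SAMP8). Mrpl32, whose product is matured by a protease of the inner mitochondrial membrane before it joins the ribosome, averaged 6.05, 6.69 and 6.81. In both genes the TG-treated group was the highest of the 3.

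The lowest strain differences included several bacterial-type genes. Mrpl9 averaged 7.80 (SAMR1), 7.16 (SAMP8) and 7.67 (TG-treated SAMP8), 1.56-fold lower in SAMP8 than in SAMR1. Mrps18c, which belongs to a group of related genes that share a bacterial small subunit ancestor, averaged 8.58, 8.03 and 8.35. Mrpl11, part of the stalk where translation factors dock, averaged 8.48, 8.17 and 8.46. In these genes SAMP8 was the low group, with TG-treated SAMP8 between SAMP8 and SAMR1. Mrpl46 and Mrpl57, both mitochondria-specific, were lower in SAMP8 by 0.43 and 0.27 on the log2 scale. Mrpl46 averaged 4.91, 4.48 and 4.86 and Mrpl57 7.67, 7.40 and 8.01, so that TG-treated SAMP8 was close to SAMR1 in the former and above it in the latter. Mrpl1, a further bacterial-type gene, had the same strain difference as Mrpl57. A part of the mobile stalk at the tRNA exit side of the large subunit, it averaged 9.24 in SAMR1 and 8.97 in SAMP8, and 0.03 more in TG-treated SAMP8.

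**Figure D1:**
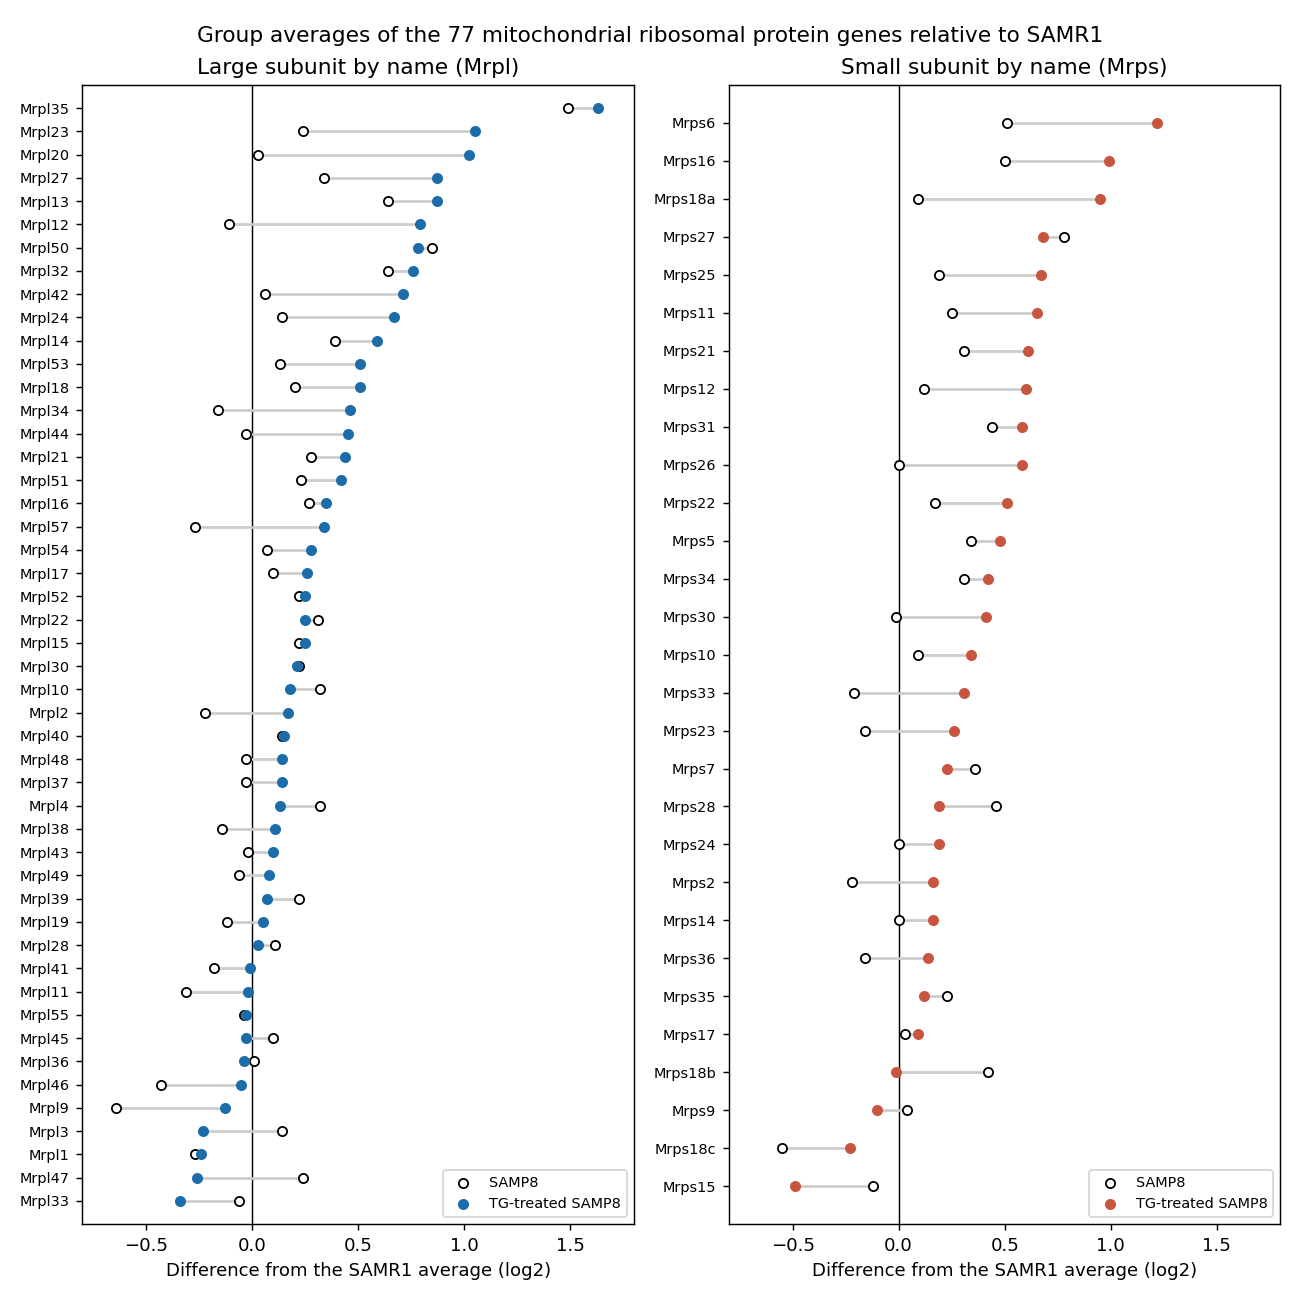
Group averages of the 77 genes as differences from the SAMR1 average (horizontal axis, log2), with Mrpl genes on the left and Mrps genes on the right, ordered by the TG-treated group. Open circles are SAMP8, filled circles TG-treated SAMP8, and the vertical line is SAMR1. The filled circle lies right of the line for 62 of 77 genes (80.5%), where 48.1% of all probe sets were higher. Mrpl35 stands out at 1.49 in SAMP8 and 1.63 in TG-treated SAMP8.

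TG-treated SAMP8 mice were next compared with nontreated SAMP8 mice. With TG, 30 members (39.0%) were higher past the limit and 6 (7.79%) were lower, with a median difference of 0.17 on the log2 scale. For all probe sets the shares were 19.6% higher and 18.5% lower and the median was 0.01. The median was above the 0.11 of the strain comparison as deposited but below it after centring, 0.14 against 0.16. Regardless of size, 58 members (75.3%) were higher and 19 (24.7%) lower, against 50.0% and 48.3% of all probe sets. At 1.1-fold, 48 members were higher and 10 lower (background 32.4% and 31.0%), and at 1.5-fold 8 were higher and 0 lower (background 4.48% and 3.74%). This comparison shares the SAMP8 averages with the first one, so a low SAMP8 value lowers one difference and raises the other.

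Mrpl20, whose bacterial counterpart is needed for assembly of the large subunit, had the largest TG difference among the members. It averaged 9.01 (SAMR1), 9.04 (SAMP8) and 10.03 (TG-treated SAMP8), 1.99-fold higher with TG. Mrpl12, the stalk protein that also associates with the mitochondrial RNA polymerase, averaged 7.12, 7.01 and 7.91, 1.87-fold higher with TG. Mrps18a averaged 8.67, 8.76 and 9.62, 1.81-fold higher with TG. In these 3 genes SAMR1 and SAMP8 lay within 0.11 of each other and the TG-treated group stood above both. Mrpl20 lies on chromosome 4 at 155802878 to 155808831, Mrpl12 on chromosome 11 at 120484637 to 120488754 and Mrps18a on chromosome 17 at 46111004 to 46128908 (GRCm38.p6).

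Mrpl23, a protein at the exit of the tunnel through which the nascent chain leaves the ribosome, averaged 5.63 (SAMR1), 5.87 (SAMP8) and 6.68 (TG-treated SAMP8). The shared Mrps6 probe set averaged 7.88, 8.39 and 9.10. In both, SAMR1 was lowest and TG-treated SAMP8 highest, with the larger step between SAMP8 and TG-treated SAMP8. Mrps16, a bacterial-type small subunit gene, took near-equal steps of 0.50 and 0.49, from 4.83 to 5.33 and 5.82.

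Of the 6 members lower past the limit with TG, Mrpl47 showed the largest difference. Mrpl47, like Mrpl23 a protein of the tunnel exit, averaged 5.96 (SAMR1), 6.20 (SAMP8) and 5.70 (TG-treated SAMP8), 1.41-fold lower with TG. Mrps18b, a relative of Mrps18c and Mrps18a, averaged 6.80, 7.22 and 6.79, so that TG-treated SAMP8 and SAMR1 differed by 0.01. Mrpl3, which reaches toward the peptidyl transferase centre, averaged 9.34, 9.48 and 9.11. Mrps15 averaged 5.22, 5.10 and 4.73 and Mrpl33 7.01, 6.95 and 6.67, with the TG-treated group lowest in both. The remaining member, Mrps28, was lower by 0.27 on the log2 scale.

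TG-treated SAMP8 mice were then set against SAMR1 mice. Here 36 members (46.8%) were higher past the limit and 2 (2.6%) were lower, with a median of 0.25 on the log2 scale, against 20.0% and 20.5% of all probe sets and a median of −0.01. The 2 lower members were Mrps15, by 0.49, and Mrpl33, by 0.34. At 1.1-fold the counts were 53 higher and 6 lower (background 31.6% and 33.3%). At 1.5-fold they were 19 higher and 0 lower (background 5.62% and 4.83%). This comparison uses the same averages as the other 2 and adds no independent measurement.

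By order of the 3 averages, TG-treated SAMP8 was the highest group in 51 members (66.2%), against 31.4% of all probe sets. SAMR1 was the lowest in 43 (55.8%), against 33.2%. SAMP8 was the highest in 17 members and the lowest in 23, which is 22.1% and 29.9% beside 32.2% and 32.7% of all probe sets. SAMR1 was the highest group in 9 members (11.7%) and TG-treated SAMP8 the lowest in 8 (10.4%), against 34.2% and 31.6% of all probe sets.

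**Figure D2:**
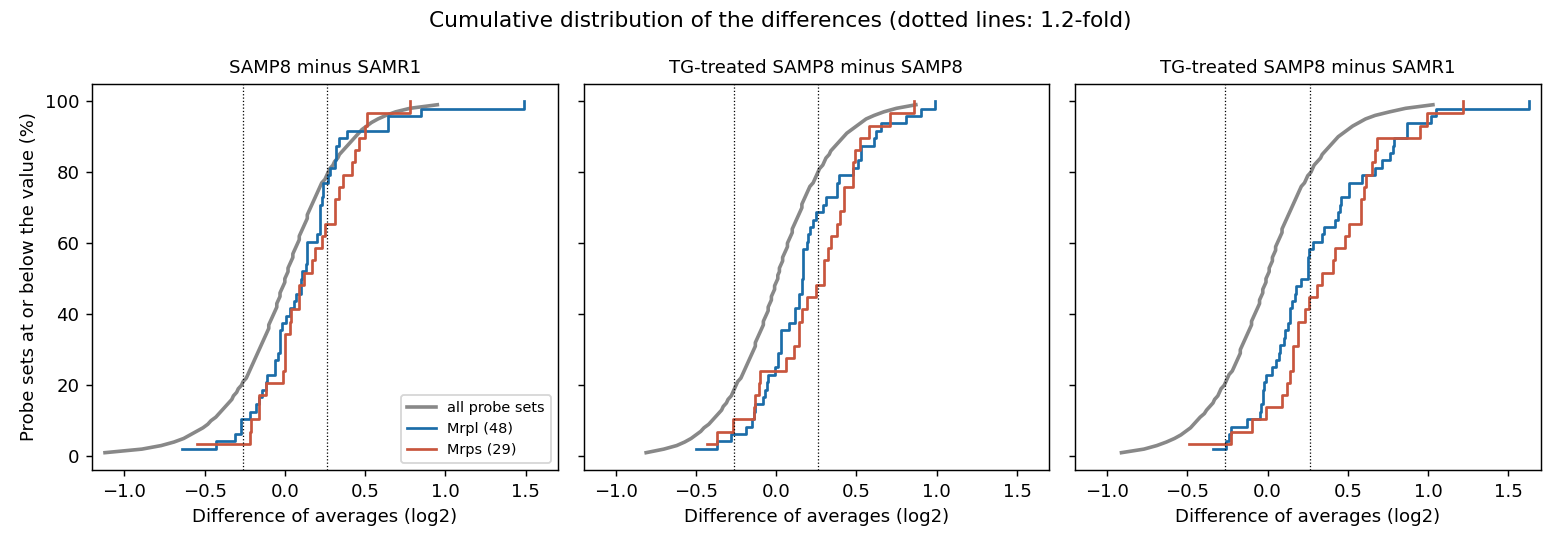
Cumulative share of probe sets (vertical axis, %) at or below each difference of averages (horizontal axis, log2) for the 3 comparisons, with all 22206 probe sets in grey, Mrpl in blue and Mrps in red. In the 2 comparisons with TG most of the members' curves lies right of the grey curve, with medians of 0.17 against 0.01 (vs. SAMP8) and 0.25 against −0.01 (vs. SAMR1).

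The large and the small subunit were compared by the medians of their members. For SAMP8 minus SAMR1 the medians were 0.105 for Mrpl and 0.12 for Mrps, a gap of −0.015. With TG the Mrpl median was 0.165 and the Mrps median 0.30. Past the limit 15 of 48 Mrpl and 15 of 29 Mrps genes were higher, with 3 lower in each, beside 19.6% and 18.5% of all probe sets. For TG-treated SAMP8 minus SAMR1 the medians were 0.23 and 0.34. TG-treated SAMP8 was the highest group in 62.5% of Mrpl and 72.4% of Mrps genes. Members are not replicates of a condition, and the gap between the subunits was not tested.

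Names and places do not coincide for 3 of the genes. The products of Mrps30 and Mrps18a sit in the large subunit, and that of Mrps36 is a component of the oxoglutarate dehydrogenase complex. Mrps30 averaged 7.24 (SAMR1), 7.23 (SAMP8) and 7.65 (TG-treated SAMP8), and Mrps36 averaged 7.97, 7.81 and 8.11, so all 3 were higher with TG past the limit. With Mrps30 and Mrps18a counted in the large subunit and Mrps36 left out, the large minus small gap with TG was −0.05 in place of −0.135, and −0.08 in place of −0.015 for SAMP8 minus SAMR1. The small subunit kept the higher median in each comparison, and the size of the gap with TG rested largely on how these genes were placed. By structure, its direction with TG also depended on the measure. The mean was 0.2084 for the large and 0.1892 for the small subunit, and 76.0% and 73.1% were higher regardless of size. Higher past the limit were 34.0% and 46.2%.

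Bacterial-type and mitochondria-specific members had like medians with TG, 0.165 over 44 genes and 0.17 over 29. Of the 44 bacterial-type genes, 17 were higher and 4 lower past the limit, and of the 29 mitochondria-specific genes 11 were higher and 0 lower, beside 19.6% and 18.5% of all probe sets. The remaining 4 genes (Mrps18a, Mrps18b, Mrps28 and Mrps36) were not assigned to either type. With TG 2 of them were higher and 2 lower past the limit, the lower ones being Mrps18b at −0.43 and Mrps28 at −0.27. The counts of both types, and the 0 lower above, thus depend on where these genes are placed. The 20 mitochondria-specific genes of the large subunit had a median of −0.015 for SAMP8 minus SAMR1, which became 0.035 after centring, and of 0.17 with TG. The 9 of the small subunit had a median of 0.19 for SAMP8 minus SAMR1 and of 0.34 with TG. For TG-treated SAMP8 minus SAMR1 all 9 were higher, by 0.12 to 0.68, beside 48.1% of all probe sets. Past the limit were 7 of them, beside 20.0% of all probe sets. Among these 9, Mrps26 was higher with TG by 0.58, Mrps33 by 0.52 and Mrps25 by 0.48.

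Parts of the large subunit differed in spread. The 6 genes of the tunnel exit all had a higher average in SAMP8 than in SAMR1, by 0.10 to 0.31, beside 49.5% of all probe sets. Only 1 of the 6 (16.7%) was past the limit, beside 20.4% of all probe sets. With TG, however, 3 were higher and 3 lower, between −0.50 for Mrpl47 and 0.81 for Mrpl23. Mrpl24, a further gene of this site, was higher by 0.53. The 7 genes of the central protuberance, which faces the tRNAs and the small subunit, were all higher with TG as deposited, by 0.01 to 0.53. Mrpl27 marked the upper end, and 3 were past the limit. The smallest of these values did not exceed the rounding error of a difference, and after centring 5 genes were higher and 1 was lower. Of all probe sets 50.0% were higher with TG, and 19.6% were higher past the limit. In the stalk, Mrpl12 and Mrpl11 were higher with TG by 0.90 and 0.29, whereas Mrpl10, to which copies of Mrpl12 bind, averaged 6.34, 6.66 and 6.52 and was lower by 0.14.

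**Figure D3:**
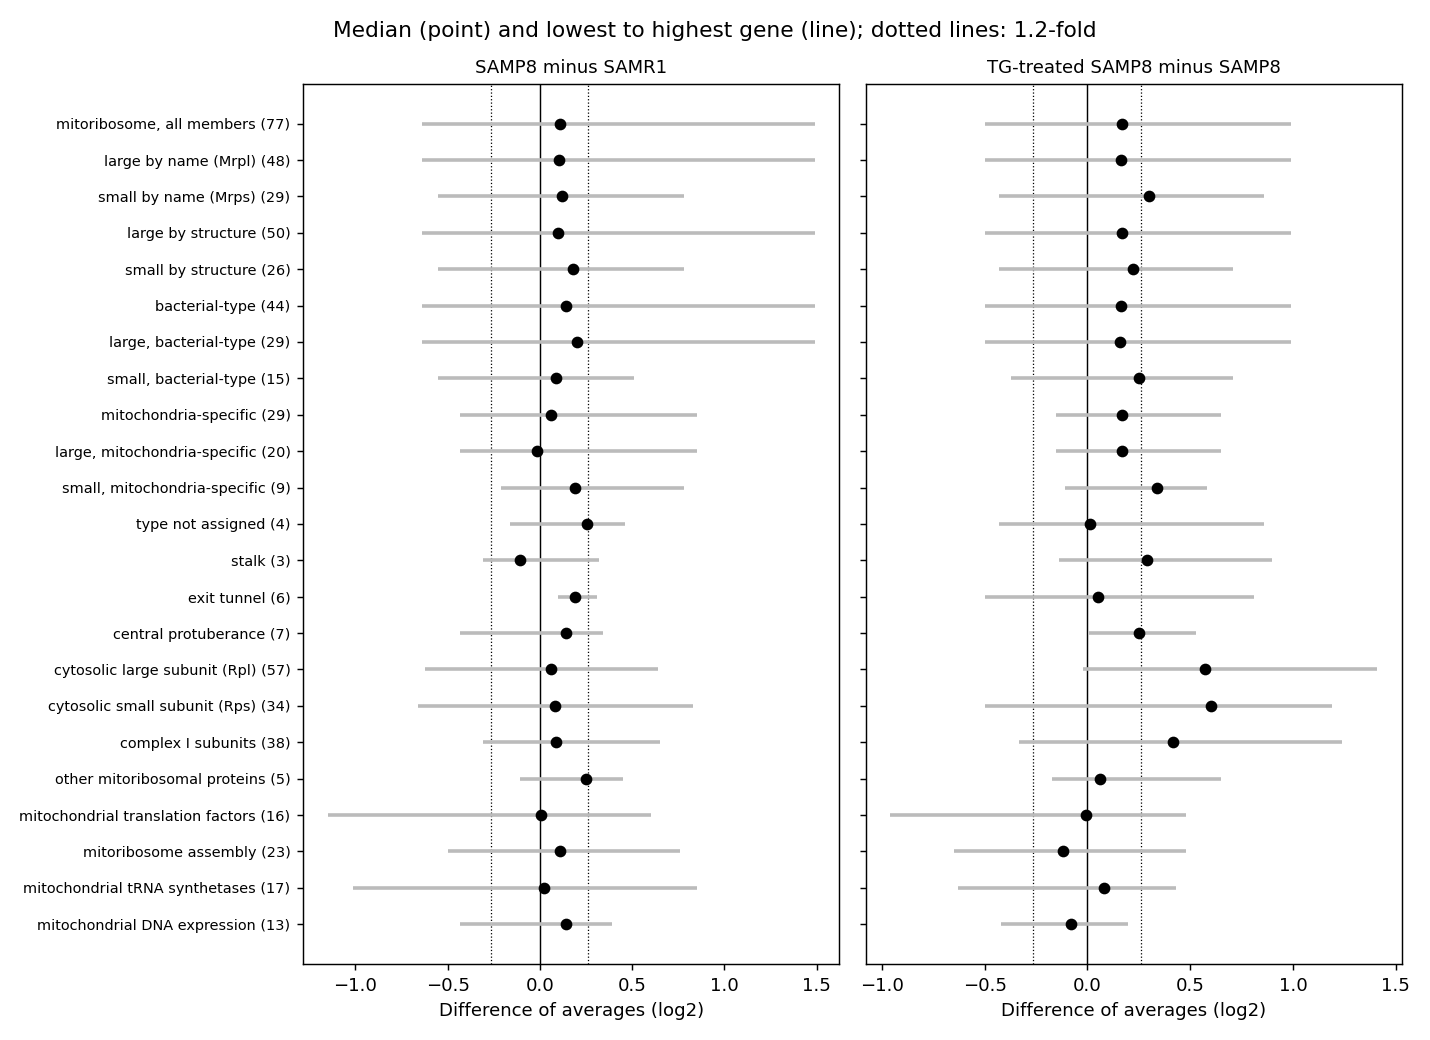
Median (point) and lowest to highest gene (line) of the difference of averages (horizontal axis, log2) for the members, their subgroups and related gene lists, with the number of probe sets in parentheses. With TG (right) the cytosolic ribosomal families reach medians of 0.57 and 0.60 and complex I 0.415, the members 0.17, and the assembly list lies at −0.12.

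The level of the signal moved with the differences over all probe sets, so members were also set beside probe sets of like signal. Among the 25% of probe sets with the highest mean signal, the median of SAMP8 minus SAMR1 was 0.12 for all and 0.10 for the 20 members there. In the next 25% it was 0.06 for all and 0.12 for the 43 members. These classes hold most of the members. In the 2 dimmer classes the medians were −0.08 and −0.08 for all and 0.145 and 0.12 for the 4 and 10 members there. The share of all probe sets higher past the limit was 30.7% and 28.0% in the 2 brighter classes, beside 5 of 20 and 12 of 43 members, and the share lower was 8.77% and 18.1%, beside 1 of 20 and 4 of 43 members. In the dimmer classes 1 of 4 and 3 of 10 members were higher, beside 8.66% and 14.4% of all probe sets. In the brighter classes, but not in the dimmer ones, the share of members higher in SAMP8 was thus close to that of all probe sets.

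With TG the picture was different. The median of all probe sets was −0.06 in the highest 25% and −0.02 in the next, and the members' medians were 0.21 and 0.16. Higher past the limit with TG were 9 of 20 members, against 15.5% of all probe sets, and 16 of 43, against 19.9%. Lower were 1 of 20 and 3 of 43 members, against 26.6% and 22.4%. In the dimmest class and the next, 0 of 4 and 5 of 10 members were higher, against 18.7% and 24.4% of all probe sets. Lower were 0 of 4 and 2 of 10, against 10.5% and 14.6%. The members' medians there were 0.115 and 0.245, against 0.04 and 0.05. For TG-treated SAMP8 minus SAMR1 the members' medians from the brightest class down were 0.53, 0.18, 0.22 and 0.265. Those of all probe sets were 0.05, 0.02, −0.04 and −0.04.

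**Figure D4:**
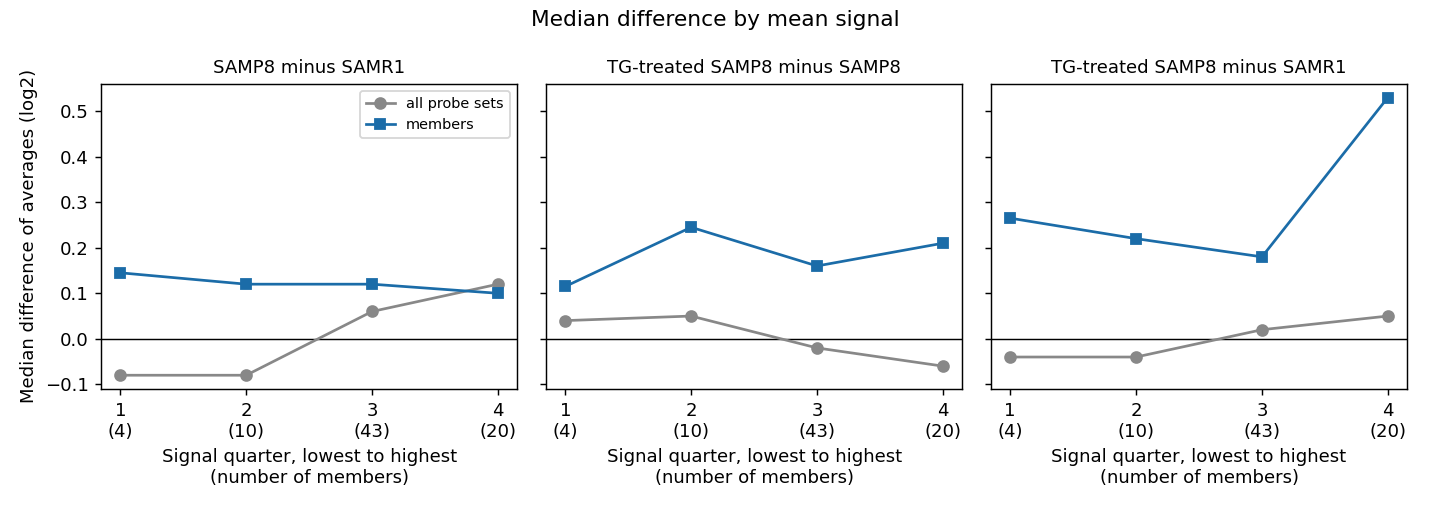
Median difference of averages (vertical axis, log2) for probe sets divided into 4 equal classes of mean signal, from lowest to highest (horizontal axis, number of members in parentheses), for all probe sets (grey) and members (blue). In the brightest class the medians of members and all probe sets are 0.10 and 0.12 for SAMP8 minus SAMR1, but 0.21 and −0.06 for TG-treated SAMP8 minus SAMP8.

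Members are short genes, with a median genomic span of 7632 bp against 17469.5 bp for the 20638 probe sets (92.9%) whose gene was found in the annotation, and span moved with the TG difference over all probe sets. The median with TG was 0.08 for all probe sets of genes up to 5000 bp, 0.05 up to 10000 bp, 0.01 up to 20000 bp and −0.06 above that. The members' medians in the same classes were 0.17, 0.30, 0.17 and −0.035. Of the 25 members up to 5000 bp, 9 were higher past the limit and 0 lower, where 28.2% of all probe sets were higher. Of the 29 members in the next class 15 were higher and 4 lower, where 24.4% of all were higher. Of the 13 members up to 20000 bp 4 were higher and 0 lower, where 19.2% of all were higher. The 10 longest members were split into 2 higher and 2 lower, where 12.9% of all were higher. The share of all probe sets lower past the limit was not computed per span class, so the counts of lower members stand without a background. Over the 77 members Spearman's rho with span was −0.182 for the TG difference and 0.248 for the strain difference, and rho of mean signal with the TG difference was 0.292. The members share the same arrays, so these values are descriptions only. The part that span and signal have in the result was not tested.

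**Figure D5:**
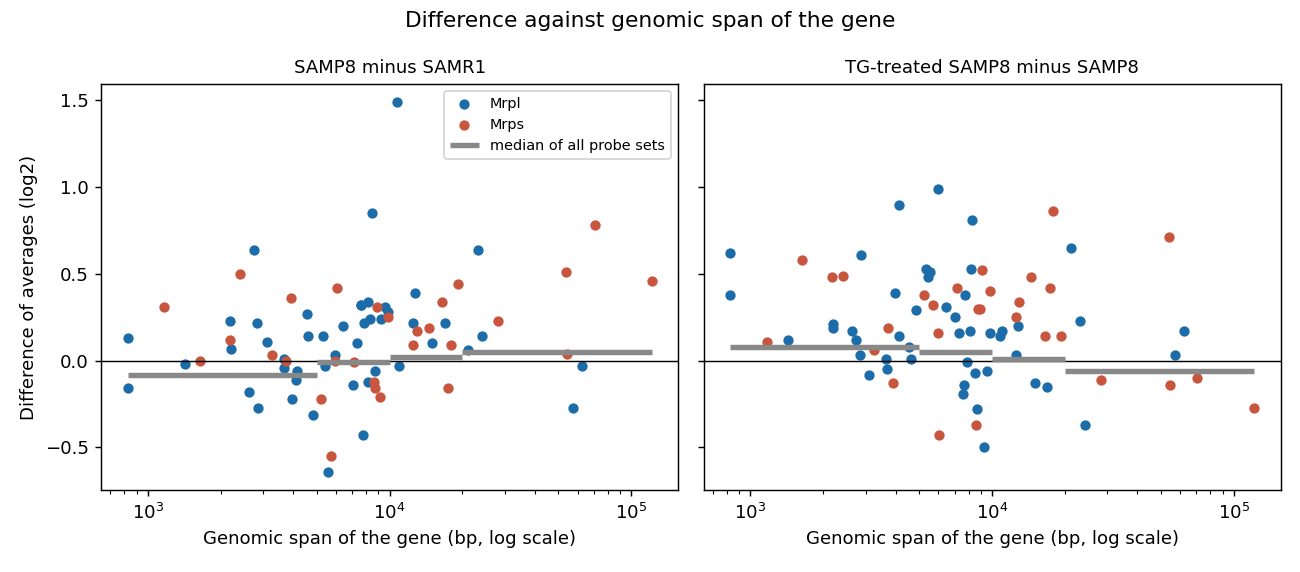
Difference of averages (vertical axis, log2) against genomic span of the gene (horizontal axis, bp, log scale) for Mrpl (blue) and Mrps (red) genes, with the median of all probe sets in 4 span classes as grey bars. With TG (right) the grey bars descend from 0.08 to −0.06 with span, while the members' medians in the same classes are 0.17, 0.30, 0.17 and −0.035.

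Probe sets of the cytosolic ribosome and of complex I, found by symbol, were displaced further with TG. The median was 0.57 over 57 Rpl probe sets, of which 43 were higher and 0 lower past the limit. It was 0.60 over 34 Rps probe sets, with 26 higher and 1 lower, Rps27l at −0.50. Over 38 complex I probe sets, the Nduf series, it was 0.415, with 30 higher and 1 lower, Ndufa4l2 at −0.33. Of all probe sets 19.6% were higher and 18.5% lower. A choice by symbol may include genes that are not subunits of these complexes. For SAMP8 minus SAMR1 the 3 families had medians of 0.06, 0.08 and 0.09, close to the 0.11 of the mitochondrial ribosomal proteins. Cytosolic ribosomal protein genes have many processed copies in the genome, which makes single values uncertain, and the difference between families was not tested.

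Other genes of mitochondrial translation had lower medians with TG than the 0.17 of the members. Of all probe sets 19.6% were higher and 18.5% lower past the limit with TG. The 5 mitochondrial ribosomal proteins with other names had a median of 0.06 with TG, between −0.17 for Ptcd3 and 0.65 for Chchd1, 2 of 5 being higher past the limit. They were all higher in TG-treated SAMP8 than in SAMR1, by 0.20 to 0.59, beside 48.1% of all probe sets. The 16 translation factors and regulators had a median of −0.005, with 4 higher and 3 lower. Their lowest value was −0.96 for Mtif2, the initiation factor that brings the initiator tRNA, and their highest 0.48 for Mrrf, the ribosome recycling factor.

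The 23 assembly and rRNA modification genes had a median of −0.12 with TG. Past the limit 1 was higher and 3 were lower, beside 19.6% and 18.5% of all probe sets. Regardless of size 15 (65.2%) were lower, beside 48.3%. Dhx30, an RNA helicase of ribosome assembly, was lowest at −0.65 and the rRNA methyltransferase gene Mrm1 highest at 0.48. The 17 mitochondrial aminoacyl-tRNA synthetase genes had a median of 0.08, from −0.63 for Mars2 to 0.43 for Pars2, with 1 higher and 2 lower past the limit. The 13 genes of mitochondrial DNA maintenance and transcription had a median of −0.08, from −0.42 for Mterf2 to 0.20 for Peo1, with 0 higher and 2 lower. For SAMP8 minus SAMR1 the medians of these 4 lists were 0.005, 0.11, 0.02 and 0.14. Their differences from the members were not tested.

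The tissue label was checked against cell type markers. All 8 markers of hippocampal neurons were above the median of all probe sets in each group. Their median levels were 11.025 (SAMR1), 11.54 (SAMP8) and 10.875 (TG-treated SAMP8). The median of their differences with TG was 0.0, however, with 4 higher and 4 lower regardless of size. Past the limit 3 of the 8 were lower and 0 higher, beside 18.5% and 19.6% of all probe sets. Prox1, of dentate granule cells, was lowest at −0.85. Markers of other cell types also differed between the groups. The median with TG was −0.31 over 5 microglial, −0.18 over 4 endothelial and −0.03 over 5 astrocyte markers, and 0.15 over 5 oligodendrocyte markers. Over 8 meningeal markers it was −0.025, with single genes between −2.69 for Ptgds and 0.46 for Lum. Over 6 choroid plexus markers it was −0.105, with 2 higher and 4 lower regardless of size, between −0.79 for Kl and 0.72 for Ttr. The thalamic marker Prkcd, of tissue that adjoins the hippocampus, averaged 11.03 in SAMP8 and 9.53 with TG, but the median of the 6 thalamic probe sets was −0.07 and the other 5 lay within the limit. The median of 5 striatal markers was −0.42, with 0 higher and 3 lower past the limit. In the striatal and in the choroid plexus list only 1 marker was above the median of all probe sets in each group, so most of these values were dim. For SAMP8 minus SAMR1, 5 of 6 thalamic probe sets and 3 of 4 endothelial markers were higher past the limit, beside 20.4% of all probe sets. Their medians were 0.44 and 0.40. The 6 thalamic probe sets stand for 4 genes, since Rora has several. The part of tissue and cell composition in the members' differences was not tested, and the spread of these markers over single arrays was not analysed here.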

How the data were processed

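Hippocampal total RNA of 3 SAMR1, 3 SAMP8 and 3 TG-treated SAMP8 mice was hybridized to Clariom S Mouse arrays. The authors normalized the arrays by SST-RMA in the Transcriptome Analysis Console (version 4.0.1 in the series text; the methods give another minor version) and deposited 2 tables with log2 signal averages per group for 22206 probe sets. The tables also hold the authors' linear fold changes, p-values and false discovery rates for their 2 comparisons, none of which were used here. The sample records carry a description of a macrophage line that contradicts their other fields and was disregarded. Groups follow the sample titles.

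The SAMP8 averages differed between the tables in 0 probe sets, so the tables were joined by probe set. Differences of log2 averages were computed for 3 comparisons, with counts past 1.2-fold and medians over members, lists and all probe sets. No test over arrays could be run on group averages. Members and gene lists were chosen with earlier results of these data known. The genes named were the 5 highest and 5 lowest members of each comparison, Mrpl20 and Mrpl12 because the study names them, Mrps30, Mrps18a and Mrps36, the stalk genes, shared probe sets, and at most the highest and lowest gene of each other list with TG. Exceptions chosen after their values were seen were Mrps28, Mrps26, Mrps33, Mrps25, Mrpl24 and Mrpl27. Roles in the ribosome were assigned from general knowledge. Gene positions came from RefSeq (GRCm38.p6), in which 77 of 77 members were found. The annotation lists Peo1 as an older symbol of Twnk.

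Alternatives were limits of 1.1-fold and 1.5-fold, 1 value per gene, probe sets with 1 gene symbol, removal of the dimmest 25% of probe sets, centring of each group on its median, and subunits by structure. The planned search for promoter motifs and the protein lengths were not run, since no sequences were used here. The counting code was tested on simulated data. The computation ran in Python 3.11.15 with matplotlib 3.10.9 for the plots, scipy 1.17.1 for rank correlations, and pandas 2.3.3 on numpy 2.4.6.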

Additional observations from a re-analysis of the deposited data

How the results depend on the processing

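The members' medians kept their sign in the 3 comparisons under the alternatives run. The order of the strain and TG medians, 0.11 and 0.17, turned over after centring. After centring, the differences shifted by 0.05 (SAMP8 minus SAMR1), −0.03 (TG-treated SAMP8 minus SAMP8) and 0.02 (TG-treated SAMP8 minus SAMR1), and the members' medians became 0.16, 0.14 and 0.27. The number of members lower in SAMP8 than in SAMR1 was then 3 in place of 6. Among the 77 members, 6, 2 and 2 differences changed sign in these comparisons. A shift of at most 0.05 could not turn the sign of a value past the limit, so the signs of such values were no check. With probe sets of 1 gene symbol the strain median was 0.10. At 1.1-fold the members higher and lower numbered 36 and 14 for SAMP8 minus SAMR1 and 48 and 10 with TG, and 6 were lower for TG-treated SAMP8 minus SAMR1. At 1.5-fold they numbered 5 and 1, 8 and 0, and 19 and 0 for the 3 comparisons in this order. With subunits by structure, the large minus small gap was −0.08, −0.05 and −0.075. Removing the dimmest 25% of probe sets took out 4 members and left 73, and this gap then was −0.145 for TG-treated SAMP8 minus SAMR1. The bacterial-type minus mitochondria-specific gap was then 0.14 in place of 0.08 for SAMP8 minus SAMR1 and −0.06 in place of −0.03 for TG-treated SAMP8 minus SAMR1. The cause of these shifts was not tested. A value per gene equalled that per probe set, since each member has 1 probe set.

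No paired analysis was possible because the tables hold no values per array. For the same reason leaving out each replicate in turn and a replicate block were not run, so it is unknown whether 1 array decides a group average. Few members were dim, 4 of 77 lying in the lowest 25% of signal. That class is a cut by rank, and the background of the array was not measured here.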
